A study of Homo sapiens with 6 samples.

Results

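Genes of the matrix metalloproteases (MMP), the ADAM, ADAMTS and ADAMTSL families, their inhibitors (TIMP1 to TIMP4 and RECK), the plasminogen activation genes PLAU, PLAUR and PLAT, and BSG were compared between control and Ephexin1-depleted H1299 cells. Genes were taken by symbol, from a set of symbols written with earlier results of these data known, and 79 of the 26255 genes listed carried such a symbol. H1299 is a human non-small cell lung cancer line. Total RNA was sequenced from 3 libraries of cells that carried a control shRNA (shControl) and from 3 libraries of cells depleted by an shRNA against Ephexin1 (shEphexin1), both shRNAs expressed from a pSilencer2.1-U6 plasmid in cells grown in RPMI-1640 with fetal bovine serum. The methods of the study describe the shRNA cells as stable clones. The names of the 3 shEphexin1 libraries share a stem, so the p-values given here may describe repeats of 1 clone.

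MMPs are zinc-dependent endopeptidases that cut collagens, laminins and other matrix proteins, either as secreted enzymes or as membrane-type enzymes anchored on the cell surface. ADAMs sit in the plasma membrane and release the outer parts of growth factors, receptors and adhesion proteins, whereas the secreted ADAMTS enzymes cut proteoglycans and procollagens, and the ADAMTSL proteins lack the protease domain. TIMPs block most of these enzymes, RECK restrains MMPs at the membrane, the urokinase PLAU bound to its receptor PLAUR turns plasminogen into plasmin, and BSG is a surface glycoprotein known for inducing MMPs.

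The active enzymes of the MMP, ADAM and ADAMTS families hold their zinc ion with a shared short run of residues, 3 histidines around a glutamate that takes part in catalysis. The DNA that encodes this run is shown for the enzymes on which the results turn, and for 2 ADAMs that have lost it, because it separates working peptidases from relatives that can only bind. Each sequence is 33 bases of the coding strand on GRCh37, 5′ to 3′, and the capitals mark the codons of the 3 histidines, the glutamate and the glycine that the MMPs and most ADAMs share, where that residue is present.
MMP17: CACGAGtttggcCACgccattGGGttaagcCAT
MMP28: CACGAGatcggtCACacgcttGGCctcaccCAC
MMP9: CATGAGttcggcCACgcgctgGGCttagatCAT
MMP14: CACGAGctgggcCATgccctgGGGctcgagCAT
ADAM12: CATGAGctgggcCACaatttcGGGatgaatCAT
ADAM17: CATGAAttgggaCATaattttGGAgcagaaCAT
ADAMTS15: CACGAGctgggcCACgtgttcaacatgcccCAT
ADAM22: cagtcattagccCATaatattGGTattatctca
ADAM23: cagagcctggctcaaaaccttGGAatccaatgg
The sites lie at chr12:132326204-132326236 on the plus strand for MMP17, chr17:34097186-34097218 on the minus strand for MMP28, chr20:44641092-44641124 on the plus strand for MMP9 and chr14:23312492-23312524 on the plus strand for MMP14. Those of the ADAMs lie at chr10:127782628-127782660 on the minus strand for ADAM12 and chr2:9650207-9650239 on the minus strand for ADAM17. The site of ADAMTS15 is split by an intron between its ends at chr11:130331507-130332004 on the plus strand, and it matches 4 of the 5 residues, with an asparagine codon in place of the glycine codon. The windows of ADAM22 at chr7:87763680-87763712 and ADAM23 at chr2:207426963-207426995, both on the plus strand, were found by aligning their proteins to that of ADAM12, and they hold 2 and 1 of the 5 residues.

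The values are FPKM, the fragments mapped to a gene scaled by its transcript length and the size of the library, with 1 value for each gene and library. Since FPKM hold no counts, how deeply each value was sequenced is unknown, no interval for counting error is given, and a value of 0 is reported only as listed at 0. Genes that reached 0.1 FPKM in 3 or more libraries were tested, which kept 47 of the 79 genes and 16020 genes of the table. A gene could pass this filter through 1 group alone, as ADAM12 and ADAMTS15 did through shControl. For such genes, being tested at all rested on the group in which they were high. Each was compared on log2(FPKM + 0.1) with limma, with the false discovery rate over the 16020 genes, and called at an adjusted p of 0.025 or less together with a difference of 2-fold or more. Log2 fold changes are those of FPKM + 0.1 and understate the change of genes near 0, whereas a value written as N-fold is the ratio of the mean FPKM of the groups. Exons of other genes overlap those of several genes described here, among them ADAM15 (DCST1) and TIMP2 (CEP295NL) on the same strand, but none were annotated over MMP17, MMP28, ADAM12, ADAMTS15, MMP14 or PLAUR. In bulk RNA, fewer expressing cells and less RNA per cell cannot be told apart.

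Ephexin1, listed as NGEF, was at 13.3, 11.7 and 16.4 FPKM in shControl against 9.81, 8.25 and 10.5 FPKM in shEphexin1, 68.9% of the control mean, and was not called (limma adjusted p = 0.103). Of the cell type markers, VIM, the mesenchymal intermediate filament, was between 1980 and 2670 FPKM. The mesenchymal CDH2 and FN1 had log2 fold changes of -0.21 and 0.27 (limma adjusted p = 0.407 and 0.220). The epithelial cadherin CDH1 was listed at 0 in all 6 libraries, and so were NKX2-1, COL1A2, LUM, PTPRC and CD3E. The fibroblast marker COL1A1 was at 0.0813 to 0.124 FPKM in shControl against 0.169 to 0.386 FPKM in shEphexin1 (limma adjusted p = 0.174). DCN was at 0.268 to 0.693 FPKM over all libraries. The lung markers SFTPB and NAPSA were at 0.151 to 0.312 and 0.0871 to 0.324 FPKM, with overlapping groups. The keratins KRT8 and KRT18 were lower in every shEphexin1 library than in any shControl library (log2 fold changes -1.07 and -0.94, limma adjusted p = 0.0304 and 0.0439). The other epithelial marker tested, EPCAM, was at no more than 0.0663 FPKM in shControl and between 0.108 and 0.220 FPKM in shEphexin1 (log2 fold change 0.97, limma adjusted p = 0.175), and KRT19 was at no more than 0.185 FPKM. Replicate 2 of both groups stood apart by its base composition, which touched the genes described here and is taken up with their values.

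The 79 genes spanned a wide range of levels in H1299 cells. BSG, PLAUR, PLAU and TIMP1 had means over the 6 libraries of at least 100 FPKM. Another 8 genes were between 10 and 100 FPKM, in descending order ADAM9, MMP14, ADAM10, TIMP2, ADAM15, ADAM17, ADAM22 and MMP17. A further 18 genes were between 1 and 10 FPKM, and 17 of those tested were below 1 FPKM. BSG alone took up 34.5% to 46.8% of the FPKM of the 79 genes in a library. The 13 genes above 0 but under the filter reached 0.111 FPKM at most, and were 7 ADAMTS genes (ADAMTS2, ADAMTS4, ADAMTS5, ADAMTS8, ADAMTS10, ADAMTS14 and ADAMTS18), ADAMTSL1, ADAMTSL3, ADAM29, ADAM30, MMP8 and MMP10. Among them were the aggrecanases ADAMTS4 and ADAMTS5. The 19 genes listed at 0 in all 6 libraries included the inhibitors TIMP3 and TIMP4, the stromelysin MMP3, matrilysin MMP7 and the macrophage elastase MMP12.

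Of the 47 genes tested, 3 were called higher in shEphexin1 (MMP17, MMP28 and MMP9) and 2 were called lower (ADAM12 and ADAMTS15). The 3 higher calls are 6.38% of the 47 genes, against 0.893% of all 16020 genes tested, and the 2 lower calls are 4.26%, against 0.999%. At an adjusted p of 0.05 or less without a limit on the fold, 7 of the 47 genes (14.9%) were higher, against 2.69% of all genes, and 2 (4.26%) were lower, against 4.32%. All 3 shEphexin1 libraries lay above all 3 shControl libraries for 14 genes (29.8%, against 12.8% of all genes), and below them for 4 genes (8.51%, against 15.4%). ADAM12 and ADAMTS15, which passed the filter through shControl alone, make up the 2 lower calls and are among these 4 genes. The median log2 fold change was 0.18 over the 47 genes and -0.0093 over all genes tested.

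**Figure D1:**
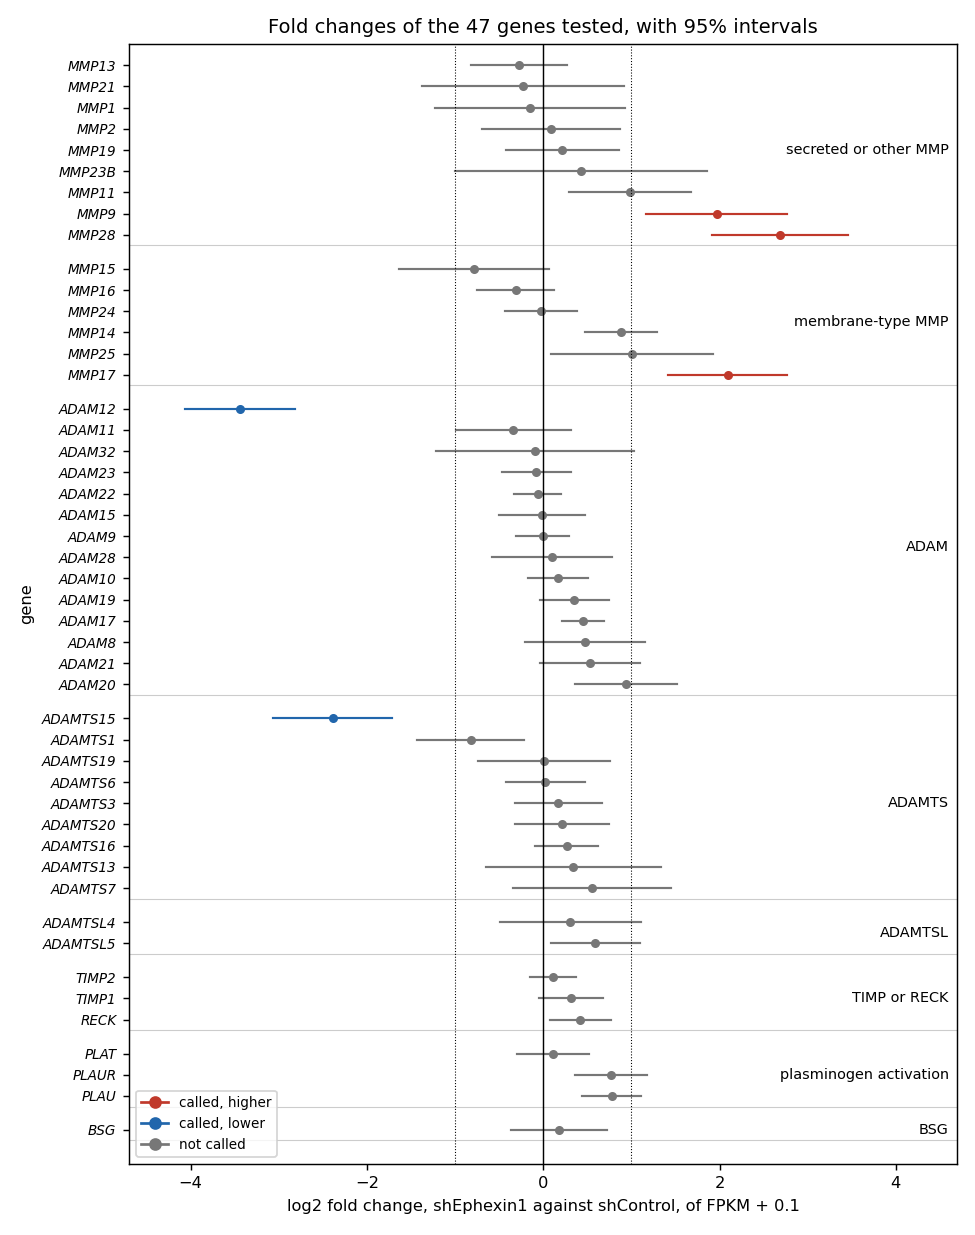
Log2 fold change of FPKM + 0.1 (x axis, shEphexin1 against shControl) for each of the 47 genes tested (y axis, grouped by role). Points are the limma estimates, bars their 95% intervals, red and blue mark the genes called higher and lower, and dotted lines mark a 2-fold difference. The 5 called genes lie beyond the dotted lines, MMP28 farthest to the right at 2.69 and ADAM12 farthest to the left at -3.44.

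Among the membrane-type MMPs, all 6 genes were tested. MMP17, a membrane-type enzyme held by a glycolipid anchor, was at 5.02, 3.60 and 6.47 FPKM in shControl against 23.2, 14.7 and 28.0 FPKM in shEphexin1. Its groups did not overlap, and it rose from a mean of 5.03 ± 1.44 FPKM to 21.97 ± 6.76 FPKM (SD, n = 3 each), 4.37-fold. The log2 fold change was 2.09 with a standard error of 0.288 (limma adjusted p = 0.00994). The estimate lay between 1.88 and 2.36 when any 1 library was left out, but the adjusted p was 0.058 without shControl replicate 1, 0.0565 without shEphexin1 replicate 1 and 0.0376 without shEphexin1 replicate 3, each above the threshold.

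MMP14, the collagenase of the cell surface that also activates MMP2, was the most abundant MMP, at 38.7, 30.8 and 41.5 FPKM in shControl against 71.2, 54.8 and 79.4 FPKM in shEphexin1. Every shEphexin1 library exceeded every shControl library, and the log2 fold change was 0.88 with a standard error of 0.174 (limma adjusted p = 0.0312), short of a 2-fold difference. MMP15 was near the filter, at 0.324, 0.291 and 0.175 FPKM against 0.134, 0.166 and 0.0428 FPKM, with a log2 fold change of -0.79 that did not pass (limma adjusted p = 0.247). MMP16, at 5.62 to 7.81 FPKM in shControl against 4.52 to 6.40 FPKM in shEphexin1, and MMP24, at 1.84 to 2.45 FPKM over all libraries, overlapped between the groups. MMP25, known from leukocytes, was listed at 0 in shControl replicate 1 and was at 0.137 and 0.0409 FPKM in replicates 2 and 3, against 0.196, 0.208 and 0.199 FPKM in shEphexin1. Its groups did not overlap, and the log2 fold change of 1.01 did not pass (limma adjusted p = 0.181). The summed FPKM of the 6 membrane-type genes was 52.7, 44.7 and 56.1 in shControl and 102, 78.1 and 115 in shEphexin1, of which MMP14 and MMP17 made up most.

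Of the 18 secreted or other MMPs, 9 were tested and 2 were called, both higher. MMP28, epilysin, a secreted enzyme of epithelia, was at 0.238, 0.706 and 0.522 FPKM in shControl against 4.02, 2.99 and 3.45 FPKM in shEphexin1. The lowest shEphexin1 value was well above the highest shControl value, and the mean rose from 0.489 ± 0.236 FPKM to 3.49 ± 0.516 FPKM (SD, n = 3 each), 7.14-fold. The log2 fold change was 2.69 with a standard error of 0.328 (limma adjusted p = 0.00658), between 2.33 and 2.96 with 1 library left out. The call was lost without shEphexin1 replicate 1 (adjusted p = 0.0429), without shEphexin1 replicate 3 (0.0328) and, at the threshold itself, without shControl replicate 3.

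MMP9, the gelatinase that cuts basement membrane collagen, was at 0.188, 0.0828 and 0.0621 FPKM in shControl against 0.754, 0.492 and 0.907 FPKM in shEphexin1. It rose by a log2 fold change of 1.97 with a standard error of 0.342 (limma adjusted p = 0.0205), from a level so low that the fold depends on the pseudocount, being 0.62 with 1 FPKM added and 2.69 with 0.01 FPKM added, and it was called with neither. The call was also lost without 5 of the 6 libraries (adjusted p from 0.0508 to 0.104), shEphexin1 replicate 2 being the exception. MMP9 is abundant in leukocytes, of whose 5 markers PTPRC and CD3E were listed at 0 and CD14 was at most 0.164 FPKM. LYZ was at 0.605, 0.0823 and 0.911 FPKM in shControl against 0.392, 1.47 and 0.757 FPKM in shEphexin1, with overlapping groups, and CD68, also expressed by other cells, lay between 37.8 and 71.1 FPKM. The summed level of the 5, nearly all of it CD68, was 38.0 to 54.5 FPKM in shControl against 55.0 to 71.9 FPKM in shEphexin1. The groups overlapped in CD68 itself, at up to 53.5 FPKM in shControl and down to 53.4 FPKM in shEphexin1. The part of such cells in the MMP9 level was not tested. An antisense transcript, SLC12A5-AS1, overlaps exons of MMP9, and the strand setting of the counting is not given in the sources used here.

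The other gelatinase, MMP2, was at 0.367, 0.539 and 0.863 FPKM in shControl against 0.745, 0.428 and 0.671 FPKM in shEphexin1, with overlapping groups (log2 fold change 0.087, 95% interval -0.70 to 0.87). MMP11, stromelysin-3, which is activated inside the cell by furin, was at 3.48, 1.58 and 2.63 FPKM against 4.84, 4.06 and 6.08 FPKM. Its groups did not overlap, but the log2 fold change of 0.98 did not pass (limma adjusted p = 0.0944). Of the 9 MMP genes clustered on chromosome 11q22, only the collagenases MMP1 and MMP13 passed the filter, and neither group was apart from the other in them. MMP1 was at 0.0354 to 0.228 FPKM over all libraries and MMP13 at 0.987 to 1.78 FPKM. MMP23A and MMP23B are near-identical copies whose reads may be divided between them, so the values of MMP23B (at most 0.304 FPKM) are uncertain. The sum over the 18 secreted genes was 7.07, 5.48 and 6.91 FPKM in shControl against 13.6, 10.4 and 13.4 FPKM in shEphexin1.

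A furin recognition site within 150 residues before the zinc site, through which an enzyme can be activated before it reaches the surface, was found in the proteins of 10 MMPs and absent from those of 13. For MMP28 and MMP12, whose annotated reading frame breaks on GRCh37, every frame was searched. All 10 of the former passed the filter, against 5 of the latter. Among the 10, MMP17 and MMP28 were called, and among the 5, MMP9. The median log2 fold change was 0.65 over the 10 and 0.087 over the 5, a description with no test.

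**Figure D2:**
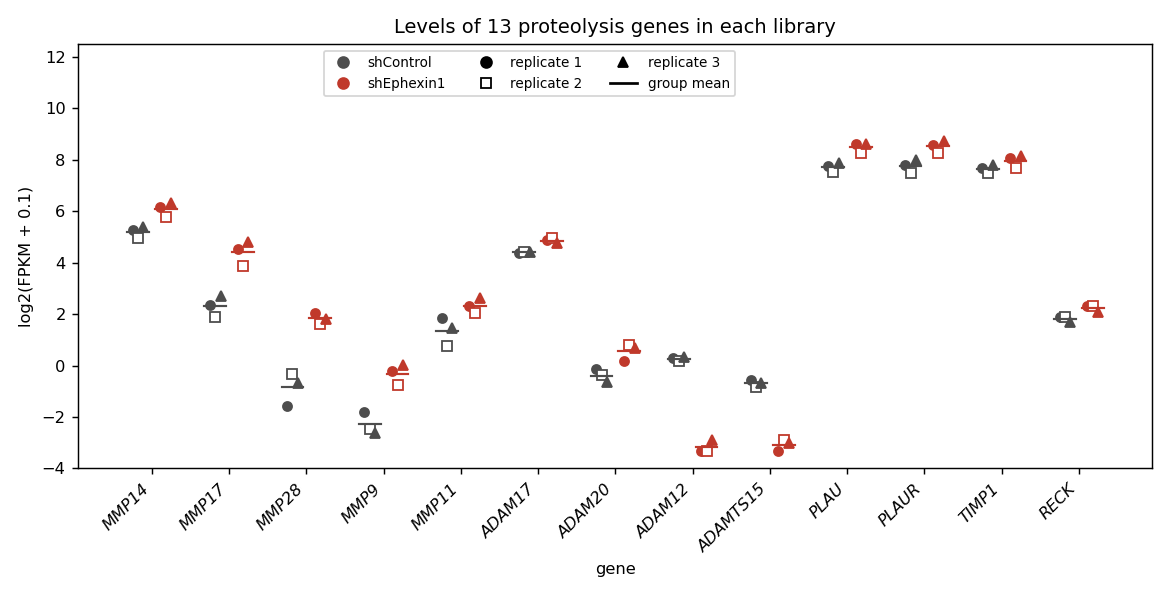
Level of 13 genes (x axis) as log2(FPKM + 0.1) (y axis) in each shControl (grey) and shEphexin1 (red) library. Symbols mark the replicate number, with replicate 2 as open squares, and lines mark the group means. MMP17, MMP28, MMP9, ADAM12 and ADAMTS15 show wide gaps between the groups, and in PLAU, PLAUR, MMP14 and TIMP1 replicate 2 is the lowest of its group.

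Of the 22 ADAM genes, 14 were tested, 7 with a positive and 7 with a negative log2 fold change, and 1 was called. ADAM12, a metalloprotease of muscle, placenta and tumours that releases HBEGF and binds integrins, was at 1.11, 1.03 and 1.15 FPKM in shControl, and it was listed at 0 in 2 shEphexin1 libraries and at 0.0330 FPKM in the third. The shControl values lay within a narrow band, and no shEphexin1 library came near it. ADAM12 fell with a log2 fold change of -3.44 and a standard error of 0.266 (limma adjusted p = 0.00112). The size of this fold is set by the pseudocount, from -1.05 with 1 FPKM added to -6.09 with 0.01 FPKM added, but ADAM12 was called under all 18 alternative fits, including those with any 1 library left out.

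ADAM17, the main sheddase of TNF and of EGF receptor ligands, was at 20.9, 21.4 and 21.3 FPKM in shControl against 29.5, 30.6 and 26.8 FPKM in shEphexin1. The groups were apart and the spread was small, with a log2 fold change of 0.45 and a standard error of 0.102 (limma adjusted p = 0.0435), short of 2-fold. Exons of IAH1 overlap ADAM17 on the opposite strand. ADAM10, the sheddase of NOTCH receptors and cadherins, was at 30.2, 36.2 and 28.5 FPKM against 35.3, 40.6 and 30.7 FPKM, with overlapping groups and a 95% interval of the log2 fold change from -0.17 to 0.50. ADAM9, the most abundant ADAM, was at 70.9, 80.0 and 69.3 FPKM in shControl against 71.8, 84.6 and 64.1 FPKM in shEphexin1 (log2 fold change -0.0049, 95% interval -0.31 to 0.30). ADAM15 was at 29.3, 22.5 and 35.7 FPKM against 30.8, 22.5 and 32.9 FPKM (95% interval -0.50 to 0.47). ADAM20, a gene of the testis, had a mean near 1 FPKM, with 0.799, 0.666 and 0.539 FPKM in shControl against 1.02, 1.62 and 1.52 FPKM in shEphexin1. It did not pass (log2 fold change 0.94, limma adjusted p = 0.0665).

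The zinc-binding run was present in the proteins of 12 ADAMs and absent from those of 8, ADAM5 and ADAM6 having no coding sequence in the annotation. Of those with it, 10 were tested, 7 with a positive log2 fold change, and the median was 0.26. Of those without it, ADAM11, ADAM22, ADAM23 and ADAM32 were tested, none with a positive log2 fold change, and the median was -0.084. ADAM22, a receptor for LGI proteins whose window shown above has lost 3 of the 5 residues, was at 16.3 to 18.4 FPKM in shControl against 15.1 to 17.3 FPKM in shEphexin1 (log2 fold change -0.064). ADAM23 was at 3.08 to 4.10 FPKM against 2.90 to 3.55 FPKM. The difference between the ADAMs with and without the run was not tested.

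Of the 19 ADAMTS genes, 9 were tested and 1 was called. ADAMTS15, an enzyme that cuts the proteoglycans aggrecan and versican, was at 0.582, 0.463 and 0.530 FPKM in shControl, and in shEphexin1 it was listed at 0 in replicate 1 and was at 0.0343 and 0.0252 FPKM in the others. It fell with a log2 fold change of -2.39 and a standard error of 0.290 (limma adjusted p = 0.00635). With 1 FPKM added the log2 fold change was -0.58, and the adjusted p rose to between 0.0282 and 0.05 without either of shControl replicates 1 and 3 or shEphexin1 replicates 1 and 3. ADAMTS1, another versican-cutting enzyme, was at 0.710, 0.543 and 0.703 FPKM against 0.361, 0.231 and 0.393 FPKM, with groups that did not overlap and a log2 fold change of -0.82 that did not pass (limma adjusted p = 0.110). The procollagen peptidase ADAMTS3, at 2.93 to 4.41 FPKM in shControl against 3.5 to 4.95 FPKM in shEphexin1, was the most abundant of the family. ADAMTSL5, a matrix protein with no protease domain that binds fibrillin, was at 6.63, 5.24 and 7.76 FPKM against 11.3, 7.45 and 11.1 FPKM, and the groups overlapped (log2 fold change 0.59, limma adjusted p = 0.155).

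Among the inhibitors, none was called. TIMP1 was at 203, 178 and 224 FPKM in shControl against 268, 203 and 285 FPKM in shEphexin1, and its lowest shEphexin1 value lay within the range of the control (log2 fold change 0.31, limma adjusted p = 0.284, 95% interval -0.052 to 0.68). TIMP2, which also takes part in the activation of MMP2 by MMP14, was at 32.8, 30.5 and 31.9 FPKM against 37.6, 30.9 and 34.7 FPKM (log2 fold change 0.11, limma adjusted p = 0.609). RECK was at 3.60, 3.58 and 3.09 FPKM against 4.92, 4.88 and 4.09 FPKM, with groups apart and a log2 fold change of 0.42 that did not pass (limma adjusted p = 0.141). The ratio of TIMP1 to MMP14 FPKM was 5.25, 5.78 and 5.39 in shControl and 3.77, 3.70 and 3.59 in shEphexin1. The ratio of the summed TIMPs to the summed MMPs was 3.95, 4.16 and 4.06 against 2.65, 2.64 and 2.50. In both ratios the 2 groups were apart by more than the spread within either, a description of mRNA levels with no test.

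In the plasminogen system, PLAU and PLAUR were among the most abundant of the 79 genes and had nearly the same level in each library. PLAU was at 219, 182 and 234 FPKM in shControl against 387, 307 and 395 FPKM in shEphexin1, with a log2 fold change of 0.78 and a standard error of 0.143 (limma adjusted p = 0.0243). PLAUR was at 222, 178 and 253 FPKM against 379, 304 and 429 FPKM, with a log2 fold change of 0.77 and a standard error of 0.174 (limma adjusted p = 0.0429). In both genes every shEphexin1 library exceeded every shControl library, and neither reached 2-fold. The PLAU to PLAUR ratio stayed between 0.921 and 1.03 over the 6 libraries. Quantile normalization took both past the call threshold (log2 fold changes 1.04 and 1.03), and subtraction of the chromosome arm median took PLAU past it (1.05). The transcript C10orf55 overlaps PLAU on the opposite strand. PLAT, the tissue-type activator, was at 8.24, 6.33 and 9.03 FPKM against 7.57, 7.99 and 9.79 FPKM (log2 fold change 0.11, 95% interval -0.30 to 0.52). BSG was at 775, 562 and 896 FPKM against 910, 618 and 1010 FPKM, with overlapping groups (log2 fold change 0.18, limma adjusted p = 0.700).

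**Figure D3:**
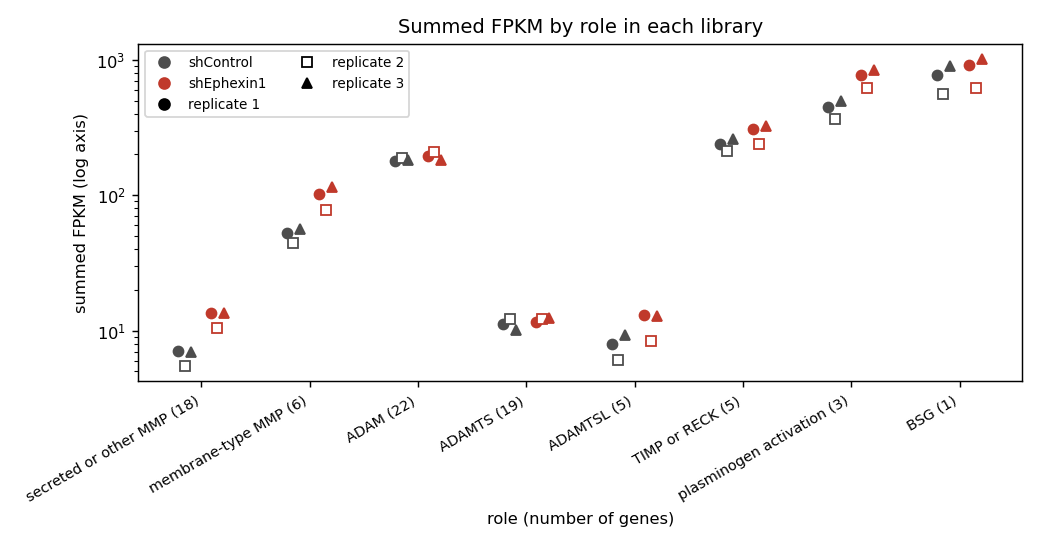
Summed FPKM (y axis, log scale) of the genes of each role (x axis, number of genes in brackets) in each shControl (grey) and shEphexin1 (red) library, with replicate 2 as open squares. The sums for the secreted MMPs, the membrane-type MMPs and plasminogen activation are apart between the groups, and those of the ADAMs, ADAMTS and BSG overlap.

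AP-1, the dimer of JUN and FOS proteins, is known to drive several MMP genes and PLAU through the letters TGANTCA, which read the same on both strands. In RefSeq promoters on GRCh38.p14 (250 bases before to 50 after a start site), 2707 of 35116 promoters (7.71%) held these letters, and so did 5 of the 51 promoters found for 48 of the 79 genes (9.80%). These were MMP7, MMP10, MMP20 and ADAMTS12, none of which passed the filter, and PLAUR, the only tested gene among them. Its match is 186 bases before the start site, shown in capitals within chr19:43670329-43670375 on the minus strand because PLAUR is among the genes with separated groups.
PLAUR: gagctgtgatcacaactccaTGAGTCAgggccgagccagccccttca
A match describes the letters and not a bound site. Promoters of the rest of the 79 genes were not used here, so whether they hold the letters is not known. Among these are the tested genes MMP1, MMP2, MMP9, MMP13, MMP17, MMP28 and ADAMTS15.

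Base composition moved with these values. Replicate 2 of both groups was the lowest of its group for 20 of the 47 genes, with a median GC content of 60.7%, and the highest of its group for 9 genes, with a median GC content of 42.1%. Over the 47 genes, which share their libraries and are no replicates of each other, Spearman's rho of GC content with the deviation from the group mean was -0.473 for shControl replicate 2 and -0.619 for shEphexin1 replicate 2, and 0.217 to 0.536 for the other 4 libraries. Over all genes tested with a known GC content, rho was -0.688 and -0.759 for these 2 libraries and 0.335 to 0.665 for the other 4. The shift was thus not particular to the 47 genes. MMP17, MMP14, PLAU, PLAUR and TIMP1 were among the 20, and ADAM9, ADAM10 and ADAM17 among the 9. The same 5 genes were called with replicates 1 and 3 alone, with replicate 2 fitted as a batch, and after a loess correction for transcript length and GC content, when the log2 fold change of MMP17 was 1.88 and that of MMP14 was 0.81.

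**Figure D4:**
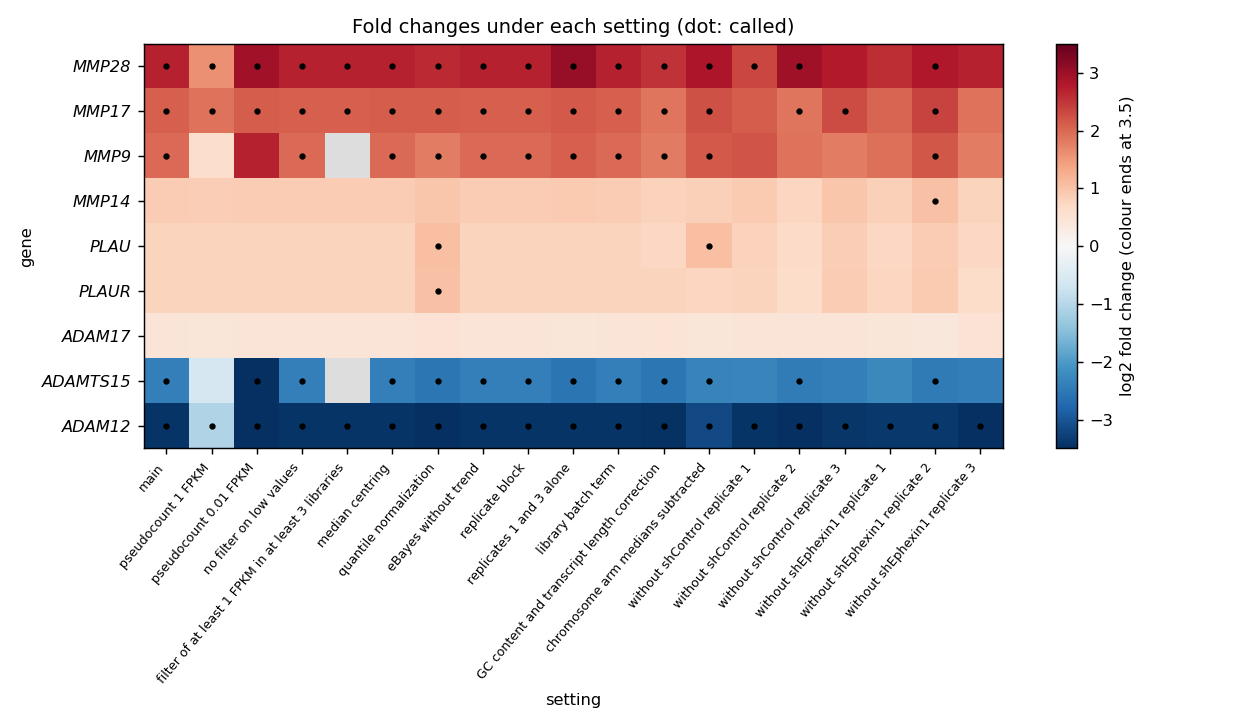
Log2 fold change (colour) of the 9 genes with an adjusted p of 0.05 or less (rows) under the fit as reported and its 18 alternatives (columns). Dots mark calls and grey cells genes left out by the filter. ADAM12 carries a dot in every column, and MMP9 keeps its dot in only 1 of the 6 columns that leave out a library.

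Other genes of pericellular proteolysis were read from 7 lists of 116 genes, of which 84 were tested. The lists hold plasminogen system genes, proprotein convertases, ADAM partners, shed substrates, matrix substrates, other matrix-degrading peptidases and transcription factors. In all, 4 genes (NOTCH1, L1CAM, IL6R and SDC1) were called higher, 4.76% of the 84 against 0.893% of all genes tested, and 1 (TNC) was called lower, 1.19% against 0.999%. L1CAM passed the filter through shEphexin1 alone and TNC through shControl alone. The 4 called higher were in the list of shed substrates, of which 18 were tested. NOTCH1, a receptor cut by ADAM10 and ADAM17, rose from 1.21, 1.10 and 1.33 FPKM to 3.21, 2.91 and 3.86 FPKM (log2 fold change 1.37, standard error 0.176, limma adjusted p = 0.00765), a call lost in 4 of the 6 fits that leave out a library (adjusted p from 0.0285 to 0.0527) and with 1 FPKM added (log2 fold change 0.96). L1CAM, an adhesion protein, was at 0.0162, 0.0306 and 0.0414 FPKM in shControl against 0.514, 0.259 and 0.484 FPKM in shEphexin1 (log2 fold change 1.97, limma adjusted p = 0.0190). Its log2 fold change was 0.46 with 1 FPKM added and 3.44 with 0.01 FPKM added, it was called with neither, and the call was lost in all fits that leave out a library (adjusted p from 0.0467 to 0.104) except that without shEphexin1 replicate 2. IL6R and the syndecan SDC1 rose with log2 fold changes of 1.09 and 1.14 (limma adjusted p = 0.0163 and 0.0230). The IL6R call was lost with each of the 6 libraries left out (adjusted p from 0.0328 to 0.0918), and that of SDC1 with each but shEphexin1 replicate 2 (0.0482 to 0.113). Other settings lost these calls as well, since IL6R and SDC1 were each called in only 9 of the 18 alternative fits. TNC, a matrix glycoprotein, was at 0.625, 0.569 and 0.567 FPKM in shControl, whereas in shEphexin1 it was listed at 0 in replicates 1 and 2 and was at 0.0124 FPKM in replicate 3 (log2 fold change -2.72, limma adjusted p = 0.00323). Its call was lost without shControl replicate 1 (adjusted p = 0.0336) and with 1 FPKM added (log2 fold change -0.66).

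The EGF receptor ligands released by ADAMs had log2 fold changes of both signs. HBEGF was at 7.61, 5.88 and 8.66 FPKM in shControl against 13.4, 12.1 and 12.6 FPKM in shEphexin1 (log2 fold change 0.79, limma adjusted p = 0.0337). TGFA was at 10.2, 9.5 and 8.59 FPKM against 6.21, 5.72 and 5.41 FPKM (-0.70, limma adjusted p = 0.0244), and NRG1, a ligand of the related ERBB receptors, was at 4.46, 5.27 and 4.18 FPKM against 2.72, 2.00 and 2.70 FPKM (-0.89, limma adjusted p = 0.0326). None of these 3 reached 2-fold. The other EGF receptor ligands tested were both positive and did not pass. EGF was at 0.047 to 0.107 FPKM in shControl against 0.199 to 0.293 FPKM in shEphexin1 (1.00, limma adjusted p = 0.106). BTC overlapped between the groups (0.61, limma adjusted p = 0.603). Of the other shed proteins, the receptor MET was at 36.5, 40.3 and 32.7 FPKM against 63.6, 74.1 and 60.7 FPKM (0.86, limma adjusted p = 0.0122), and the prion protein PRNP at 102, 101 and 102 FPKM against 73.4, 78.7 and 76.4 FPKM (-0.42, limma adjusted p = 0.0354), both short of 2-fold. Over 18 alternative fits MET ran from 0.54 to 0.953 and PRNP from -0.447 to -0.155. MET lies on chromosome arm 7q, whose 516 genes had a median log2 fold change of 0.316. With 1 library left out, the limma adjusted p reached 0.0805 for MET, 0.178 for PRNP, 0.146 for HBEGF, 0.139 for TGFA and 0.134 for NRG1. RHBDF1 and RHBDF2, the iRhoms that carry ADAM17 to the surface, had groups that did not overlap but did not pass (log2 fold changes 0.85 and 0.86, limma adjusted p = 0.0919 and 0.0711). FRMD8, of the same list of ADAM partners, had a log2 fold change of -0.042 (limma adjusted p = 0.948). The median over the 12 genes of that list was 0.047. SPINT2, an inhibitor of serine proteases at the membrane, was at 5.39, 3.56 and 6.09 FPKM against 11.8, 8.85 and 14 FPKM (1.2, limma adjusted p = 0.0339). It was called with replicates 1 and 3 alone, with replicate 2 fitted as a batch, with a replicate block, after the GC correction, with median centring and without shEphexin1 replicate 2. Of the 14 transcription factors listed (AP-1 and ETS proteins with RUNX2 and EGR1), none was called. The zinc-finger factor EGR1 (0.86, limma adjusted p = 0.0158) was the only one at an adjusted p of 0.05 or less, so no AP-1 or ETS gene of the list reached it. No gene of the plasminogen system list reached that level.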

How the data were processed

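Per the labels and the study's methods, total RNA was isolated with TRIzol from shControl and shEphexin1 H1299 cells and made into TruSeq stranded total RNA libraries, 3 per group. The submitters' processing notes name bcl2fastq 2.20, Bowtie, TopHat2 2.0.13, Cufflinks 2.2.1 and the GRCh37/hg19 build. The authors deposited FPKM for each gene and library, computed by Cuffdiff with geometric library scaling and pooled dispersion, and the gene annotation is not given in the sources used here. The deposited table has 6 value columns, all mapped to libraries by name, and 0 were left out.

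FPKM were transformed as log2(FPKM + 0.1) and fitted with limma 3.58.1 in R 4.3.3 (eBayes with trend), with Benjamini-Hochberg adjustment over the 16020 genes past the filter. Standard errors and 95% intervals are those of the moderated fit. The pipeline was tested on simulated data. Positions, GC content, exon overlaps and coding sequences came from GENCODE release 44 on GRCh37, and promoters from RefSeq on GRCh38.p14. Python 3.11.15, pandas 2.3.3, Biopython 1.88 and matplotlib 3.10.9 were used for the tables, alignments and plots.

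The genes, the lists and the rule for naming were chosen with earlier results of these data known. Full values are given for every gene called, for genes with a mean of at least 1 FPKM whose groups do not overlap and whose log2 fold change is at least 0.5 in size, and for MMP2, MMP14, MMP15, ADAM9, ADAM10, ADAM15, ADAM17, TIMP1, TIMP2, TIMP3, RECK, PLAU, PLAUR, PLAT and BSG. ADAM22, ADAM23, ADAMTS1, ADAMTS3, ADAMTSL5, MMP1, MMP13, MMP16, MMP23B, MMP24 and MMP25 were named in addition, and the overlap and base composition counts were made, after their values had been seen. Of the lists, genes called are named, with others at an adjusted p of 0.05 or less, the ADAM partners RHBDF1, RHBDF2 and FRMD8, and the ligands EGF and BTC.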

Additional observations from a re-analysis of the deposited data

How the results depend on the processing

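The number of the 79 genes called was 5 as reported, 3 with a pseudocount of 1 FPKM (ADAM12, MMP17 and MMP28), 3 with a filter of 1 FPKM, where 32 genes were tested and MMP9 and ADAMTS15 were not, 7 with quantile normalization and 6 with chromosome arm medians subtracted. It was between 1 and 6 with each library left out in turn, when only ADAM12 remained called without shEphexin1 replicate 1 or shEphexin1 replicate 3. Such fits rest on fewer samples. The count of the other proteolysis genes called was 5 as reported, 1 with a pseudocount of 1 FPKM, 3 with a pseudocount of 0.01 FPKM, with no filter, with a filter of 1 FPKM or with quantile normalization, and 8 at an adjusted p of 0.025 with no limit on the fold. With each library left out in turn it was between 0 and 6. The cause of these shifts was not tested.

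Correlations of the deviations of same-numbered libraries were 0.0914, 0.430 and 0.328 for replicates 1 to 3. Deviations were thus partly shared between the groups, in replicate 2 together with the base composition given above. The labels number the libraries but do not say that equal numbers were handled together, and the fit as reported holds no pairing. Overlap of the groups and adjusted p without a block take no account of such a shared part. With the replicate number as a block, 5 of the 79 genes, the same ones, and 6 of the other proteolysis genes, SPINT2 among them, were called. The block lowered the limma adjusted p of several genes short of 2-fold. It became 0.000206 for MMP14, 0.00924 for MMP11, 0.00388 for ADAMTSL5, 0.0286 for MMP16 and 0.0188 for BSG. Without the block these were 0.0312, 0.0944, 0.155, 0.377 and 0.700. With the block, MMP2 (0.853) and ADAM9 (0.950) stayed far from the threshold. The inhibitors moved with the setting as well. Over the 18 alternative fits, the limma adjusted p ran from 0.00403 to 0.569 for TIMP1 and from 0.00849 to 0.386 for RECK, and neither was called in any. The adjusted p-values in the sections above are without a block unless stated.

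Several genes with log2 fold changes near 0 changed sign. ADAM15 was at 0.053 with quantile normalization, and ADAM9 was at 0.0062 with median centring, 0.115 with quantile normalization, 0.0355 with GC content and transcript length correction and 0.0852 with arm medians subtracted. MMP2 was at -0.0448 with quantile normalization, and PLAT at -0.0029 with replicates 1 and 3 alone. Without a change of sign, subtraction of arm medians moved MMP16 from -0.314 to -0.101 (limma adjusted p = 0.822) and ADAM22 from -0.0639 to -0.38 (limma adjusted p = 0.116). With 1 library left out, ADAM22 ran from -0.104 to 0.00106, ADAM9 from -0.111 to 0.0884, BSG from -0.00922 to 0.39, MMP2 from -0.162 to 0.36, PLAT from -0.0386 to 0.214 and ADAM15 from -0.189 to 0.149. The depth behind each FPKM is unknown, so counting error in low genes such as MMP9, ADAM12 and ADAMTS15 could not be measured.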
